A study of Mus musculus with 64 samples.

Results

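The STAT transcription factors and the JAK kinases that activate them were followed in cultured mouse natural killer (NK) cells, lymphocytes that kill abnormal cells and release cytokines. The 9 genes are Stat2, Stat3, Stat4, Stat5a, Stat5b, Stat6, Jak1, Jak2 and Tyk2, taken by symbol from a table of 36273 genes. All 9 were abundant enough to be tested, among 10723 genes tested in all. RNA was measured by bulk 3′ mRNA sequencing, which counts fragments from the 3′ ends of transcripts, in 64 libraries that fall into 18 groups.

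Splenic NK cells of C57BL/6J mice are called WT. EP2KO cells came from Ptger2-/-Ptger4fl/fl mice, which lack the prostaglandin E2 (PGE2) receptor EP2 and carry floxed but undeleted Ptger4, the gene of the receptor EP4. EP2/EP4KO cells came from GzmbCrePtger2-/-Ptger4fl/fl mice, in which Cre driven by Gzmb is to delete Ptger4, so the loss of EP4 depends on Gzmb expression. All cells had spent 5 days in culture in low-dose IL-2 plus a complex of IL-15 and IL15Ra. They were then left untreated, given PGE2 at 100 ng/ml, or given medium conditioned by PGE2-producing BRAFV600E control cells, for 5 h. In stimulated groups, 1 h of treatment was followed by 4 h of anti-NK1.1, an antibody that triggers the activating receptor NK1.1. Groups held 4 libraries in WT and EP2KO and 3 in EP2/EP4KO, except that unstimulated WT cells with PGE2 had 2. Nothing in the labels says whether replicates were separate mice or cultures. The p-values therefore reflect only how much these libraries vary, which may be technical.

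Cytokine receptors lack kinase activity of their own and borrow it from JAKs bound to their tails. Ligand binding brings the JAKs together, they phosphorylate the receptor and the docked STAT proteins, and paired STATs move to the nucleus. In NK cells IL-2 and IL-15 act through JAK1 and JAK3 on STAT5, IL-12 acts through JAK2 and TYK2 on STAT4, interferon-gamma acts through JAK1 and JAK2, IL-6 and IL-10 family cytokines act mainly on STAT3, and type I interferon acts on complexes that contain STAT2. Signalling runs on phosphorylation, which transcript levels do not measure.

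Library totals ran from 753973 to 1693750 counts with a median of 1256163, so a count is worth about 1 CPM. CPM, a gene's count relative to its library's size, is the unit of all levels below, with library sizes adjusted by edgeR's TMM factors. The 12 NK cell markers were detected in every library and took 0.740% to 1.37% of its counts, while T cell, B cell, myeloid and neutrophil markers each took at most 0.0550%. Xist, transcribed in females, ran from 478 to 939.9 CPM in WT and EP2KO libraries and from 30.0 to 63.6 CPM in EP2/EP4KO libraries, and the Y-linked Eif2s3y ran the other way. EP2/EP4KO therefore differs from EP2KO in sex as well as in EP4, and its mice also carried GzmbCre. These differences cannot be told apart in any comparison of those genotypes. The targeted Ptger2 was 3.32 to 36.6 CPM over WT libraries, against 2.41 to 13.9 for EP2KO and 2.14 to 14.9 for EP2/EP4KO. Ptger4 was 9.58 to 81.3, 14.2 to 68.3 and 31.3 to 125 CPM. A 3′ tag may lie outside the deleted part, so these levels check neither label. Bulk RNA cannot separate fewer cells of a type from less RNA per cell.

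Stat3 was the member that rose in every WT and EP2KO treatment comparison, with PGE2 and with conditioned medium. Jak2 was the member that anti-NK1.1 raised most in untreated cells. In stimulated WT and EP2KO cells Jak2 stood lower where either treatment had been given before anti-NK1.1, and in EP2/EP4KO no such fall was called. The other genes moved less. Stat4 and Jak1 fell and Stat5a and Stat6 rose with stimulation of untreated cells. Stat5b rose in some treatment comparisons, Tyk2 was at the edge of the threshold and Stat2 was not called in the main analysis. Changes are given as log2 fold ± SE, estimated by the quasi-likelihood model of edgeR over all 64 libraries, and a gene was called at a Benjamini-Hochberg adjusted p under 0.05 over all 10723 genes.

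With anti-NK1.1, 5 of the 9 members were called in each genotype, 3 higher (Jak2, Stat5a, Stat6) and 2 lower (Stat4, Jak1). The share of all tested genes called was 42.0% in WT (23.0% higher, 19.1% lower), 33.3% in EP2KO (18.4% and 15.0%) and 30.2% in EP2/EP4KO (16.4% and 13.8%). With PGE2 in unstimulated cells, Stat3 alone was called, higher, in WT (2.97% of all genes, 1.91% higher and 1.05% lower) and in EP2KO (3.15%, 1.75% and 1.40%). With PGE2 in stimulated cells, 3 members were higher and 3 lower in WT (15.6% of all genes, 6.00% higher and 9.63% lower), and 2 were higher and 1 lower in EP2KO (7.29%, 3.39% and 3.90%).

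Conditioned medium gave 3 higher members in unstimulated WT (8.23% of all genes, 4.55% higher and 3.68% lower) and 2 in unstimulated EP2KO (4.37%, 2.23% and 2.14%). In stimulated cells it gave 2 higher and 2 lower members in WT (15.4%, 6.20% and 9.22%) and 1 higher and 2 lower in EP2KO (10.4%, 4.50% and 5.91%).

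No member was called for either treatment in EP2/EP4KO by edgeR or by DESeq2, and edgeR called 0% of all genes in 3 of these comparisons and 0.0746% with conditioned medium in stimulated cells (0.0560% higher, 0.0187% lower). At an unadjusted p under 0.05, edgeR had 3 members with PGE2 unstimulated (Stat3, Stat5a and Stat5b), where 184 of all 10723 genes passed. In each of the other 3 comparisons it had 1, Stat3. There 260 (PGE2, stimulated), 485 and 723 (conditioned medium, unstimulated and stimulated) of all genes passed. With the replicate number as a block edgeR called Stat3 for conditioned medium in stimulated EP2/EP4KO cells, a comparison in which all 3 same-numbered pairs deviated together (r = 0.21 to 0.56). Conditioned medium against PGE2 in WT also gave 0 members by both tools, against 0% of all genes unstimulated and 0.00933% stimulated. At an unadjusted p under 0.05 by edgeR, 0 and 1 members passed, as did 295 and 491 of all genes.

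**Figure D1:**
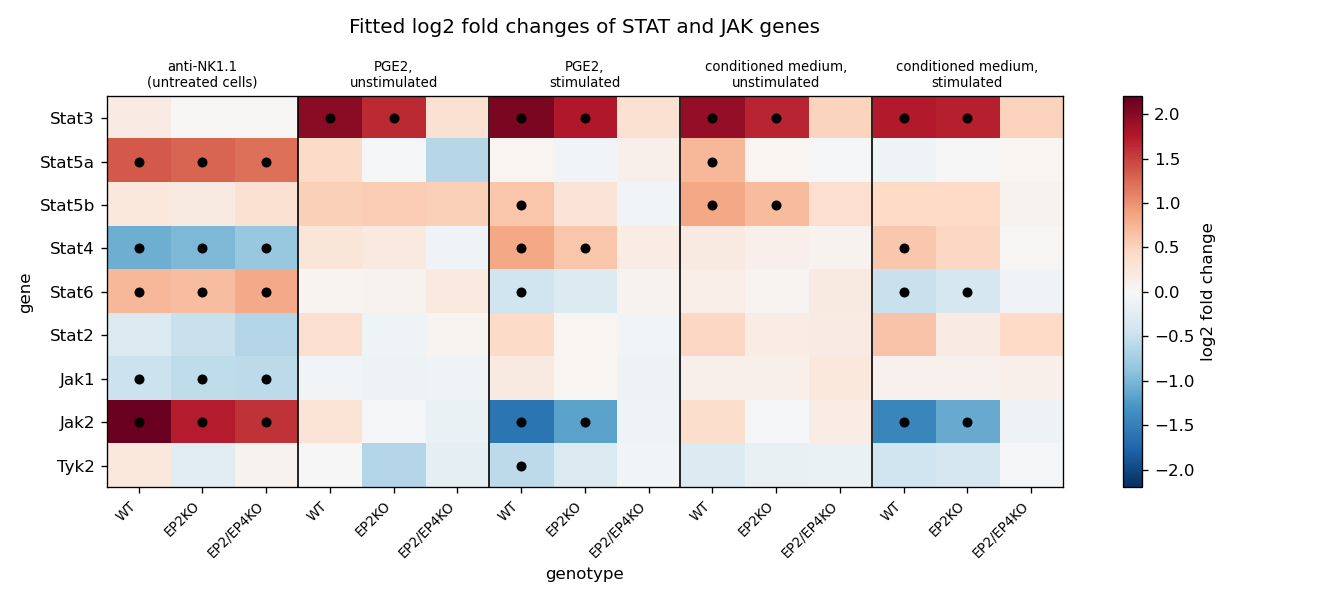
Fitted log2 fold changes of the 9 members (rows) in the 15 comparisons within a genotype (columns, grouped by comparison), with red for higher, blue for lower and a black dot where edgeR's adjusted p was under 0.05. Stat3 is dark red with both treatments in WT and EP2KO, Jak2 is red with anti-NK1.1 and blue with both treatments of stimulated cells, and no dot stands in an EP2/EP4KO treatment column.

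Stat3 encodes the STAT that IL-6, IL-10 and IL-21 chiefly use. It lies at chr11:100885098-100939540 on the minus strand (GRCm38). Untreated, it ran from 146 to 223 CPM over all genotypes and both stimulation states. In unstimulated WT cells the untreated libraries had 203, 179, 193 and 146 CPM, the PGE2 libraries 714 and 719.6, and the conditioned medium libraries 747, 576, 709 and 713. Every treated library was far above every untreated one, and the rise was 1.99 ± 0.15 with PGE2 (3.97-fold, adjusted p = 1.55e-15) and 1.93 ± 0.13 with conditioned medium (3.80-fold, adjusted p = 1.61e-17), by edgeR's test.

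Stimulation left this response in place. Stimulated WT cells had 204, 198.5, 218 and 194 CPM untreated, 936, 807.5, 807 and 857 with PGE2, and 721, 703, 649 and 660.5 with conditioned medium. The groups again did not overlap, with rises of 2.07 ± 0.13 (4.19-fold, adjusted p = 3.98e-19) and 1.75 ± 0.13 (3.36-fold, adjusted p = 3.87e-16) by edgeR. Anti-NK1.1 by itself moved Stat3 by 0.17 ± 0.13 in WT, 0.03 ± 0.13 in EP2KO and 0.02 ± 0.15 in EP2/EP4KO, none of them called. The PGE2 rise was not called different between stimulated and unstimulated WT cells (difference 0.08 ± 0.20, 95% interval -0.33 to 0.48). Stimulated cells with conditioned medium lay below those with PGE2 by -0.32 ± 0.13 (interval -0.57 to -0.07), which was not called (adjusted p = 0.959).

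EP2KO cells kept the Stat3 rise. Unstimulated, they had 164.5, 150.2, 188 and 202 CPM untreated, 559, 525.5, 663 and 447 with PGE2, and 558, 563, 689 and 434 with conditioned medium. Stimulated, they had 179, 175, 196 and 169 CPM untreated, 614.5, 627, 658 and 540.3 with PGE2, and 614, 611, 644 and 486 with conditioned medium. No treated library overlapped an untreated one. The rises were 1.64 ± 0.13 and 1.67 ± 0.13 unstimulated and 1.76 ± 0.13 and 1.71 ± 0.13 stimulated, for PGE2 and conditioned medium, the largest of their adjusted p-values by edgeR being 2.33e-14.

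The 4 differences of these rises, EP2KO minus WT, were -0.35 ± 0.20 and -0.30 ± 0.18 for PGE2 (unstimulated and stimulated) and -0.26 ± 0.19 and -0.04 ± 0.18 for conditioned medium. No member was called in any of the 4, by edgeR or by DESeq2, where edgeR called 0% of all genes. At an unadjusted p under 0.05, 1 member, Stat5a (-0.69), passed with conditioned medium unstimulated (346 of all 10723 genes). In the other 3 comparisons 0 passed (272 and 465 of all genes for PGE2, 266 for conditioned medium stimulated). The intervals of the Stat3 differences reached from -0.75 to 0.05 and from -0.66 to 0.06 for PGE2, and from -0.62 to 0.11 and from -0.40 to 0.32 for conditioned medium.

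In EP2/EP4KO cells no Stat3 change was called. Unstimulated, they had 172, 223 and 209 CPM untreated, 204, 283 and 272.5 with PGE2, and 259.9, 316 and 270.1 with conditioned medium. Stimulated, they had 195, 207.5 and 209.7 CPM untreated, 232, 285 and 252 with PGE2, and 237, 342 and 288 with conditioned medium. The unstimulated PGE2 libraries overlapped the untreated ones, and the other 3 treated groups lay just above theirs. In all 4 comparisons each treated library was above the untreated one of the same number. The fitted changes were 0.33 ± 0.15 and 0.33 ± 0.15 with PGE2 and 0.49 ± 0.15 and 0.50 ± 0.15 with conditioned medium (unstimulated and stimulated), with adjusted p-values of at least 0.302. Their unadjusted 95% intervals lay above 0, from 0.03 to 0.63 for PGE2 in both states, and from 0.19 to 0.78 and 0.21 to 0.80 for conditioned medium. With the replicate number as a block, which pairs libraries of the same number, the last of these was called (0.49 ± 0.12, adjusted p = 0.0172).

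The Stat3 rise was smaller in EP2/EP4KO than in EP2KO in all 4 comparisons. For PGE2 the difference was -1.31 ± 0.20 unstimulated (adjusted p = 0.000149) and -1.43 ± 0.20 stimulated (adjusted p = 4.11e-06). For conditioned medium it was -1.18 ± 0.20 (adjusted p = 0.00111) and -1.21 ± 0.20 (adjusted p = 0.00032). Stat3 was the only member called unstimulated, where 0.354% (PGE2) and 0.214% (conditioned medium) of all genes were called. Stimulated, Stat3 was called lower and Jak2 higher, where 0.951% and 0.345% of all genes were called.

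Among the 10723 genes, Stat3 had the smallest p in 7 of the 8 treatment comparisons of WT and EP2KO, and the second smallest in the other. By size of the rise it ranked between 36 and 64, so other genes had larger rises. Its p was also the smallest of all genes for the EP2/EP4KO minus EP2KO difference in unstimulated cells, with either treatment. In unstimulated WT cells the share of counts from mitochondrial genes moved with treatment, from 8.93% ± 1.25 (SD, n = 4) untreated to 10.8% ± 0.427 in the PGE2 group (n = 2) and 11.1% ± 1.25 under conditioned medium (n = 4), and its part in the result was not tested. In stimulated WT cells the share was 8.66% ± 1.30 untreated, 9.67% ± 0.920 with PGE2 and 8.93% ± 0.961 with conditioned medium. In unstimulated EP2KO cells it was 10.2% ± 0.743, 11.3% ± 0.862 and 11.6% ± 0.797 in the same order.

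**Figure D2:**
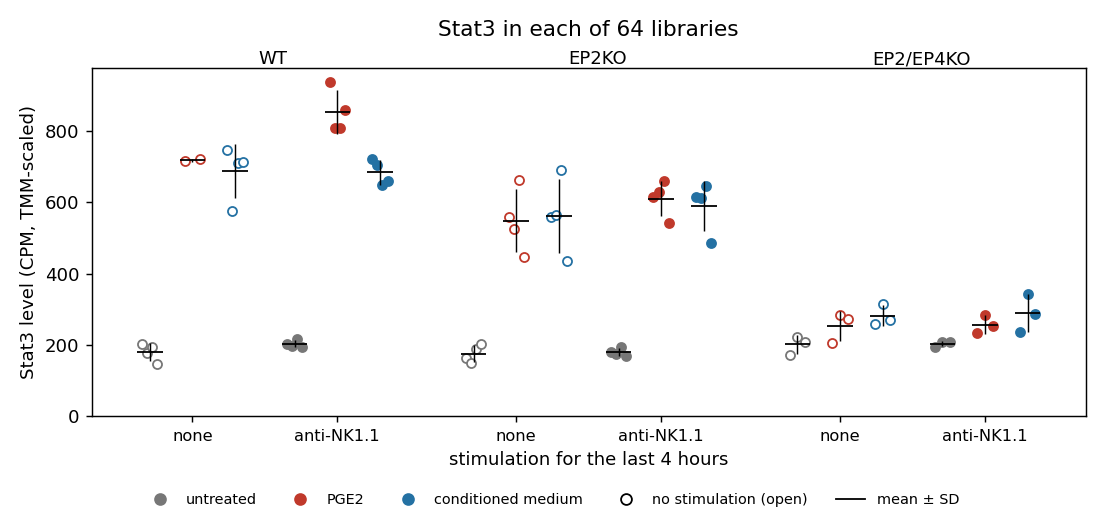
Stat3 level in CPM (vertical axis, from 0) in each library, by genotype, stimulation (open circles none, filled circles anti-NK1.1) and treatment (colour), with a bar at each group mean and a line of 1 SD either way. Untreated libraries sit between 146 and 223 CPM in all genotypes, treated WT and EP2KO libraries between 434 and 936 CPM, and treated EP2/EP4KO libraries between 204 and 342 CPM.

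The promoter of Stat3 is shown because PGE2 receptors EP2 and EP4 raise cyclic AMP, and the cyclic AMP response element, TGACGTCA, is the best-known DNA site of that pathway. Windows of 300 bases, from 250 before to 50 after the annotated start, were read from RefSeq (GRCm38.p6) and matched all 9 members in 12 windows. The Stat3 window is chr11:100939491-100939790, minus strand, written 5′ to 3′ in the direction of transcription:

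Stat3: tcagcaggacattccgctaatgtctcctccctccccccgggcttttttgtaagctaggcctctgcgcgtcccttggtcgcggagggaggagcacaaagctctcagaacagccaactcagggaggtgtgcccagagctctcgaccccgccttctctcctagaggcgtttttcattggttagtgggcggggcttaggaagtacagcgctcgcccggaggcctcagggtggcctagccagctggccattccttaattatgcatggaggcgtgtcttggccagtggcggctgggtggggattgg

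This window held none of the motifs searched on both strands, hence no capitals. These were TGACGTCA, found in 1.79% of all 32851 RefSeq windows of this length, its core TGACG (20.81%, every TGACGTCA counted too), the STAT site TTCNNNGAA (8.298%) and the AP-1 site TGANTCA (7.808%). That says only that these letters are not in this window. TTCNNNGAA and TGANTCA were in 0 of the 12 member windows, TGACG was in 4 (Stat4, Stat5a, Stat6, Jak1) and TGACGTCA was in 1, that of Jak1.

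Jak2 encodes the kinase bound to the receptors for interferon-gamma, IL-12 and GM-CSF, and lies at chr19:29251828-29313080 on the plus strand. In untreated WT cells it stood at 81.4, 72.6, 64.8 and 65.6 CPM without stimulation and at 251, 452, 299 and 283 CPM with anti-NK1.1. All stimulated libraries were above all unstimulated ones, and the rise was 2.17 ± 0.17 (4.51-fold, edgeR adjusted p = 8.04e-17). With PGE2, stimulated WT cells had 105, 124, 101 and 90.6 CPM, and with conditioned medium 122.5, 115, 123 and 116. Each treated library lay below each untreated stimulated one, by -1.61 ± 0.16 with PGE2 (0.328 of the untreated level, adjusted p = 8.64e-12) and -1.43 ± 0.16 with conditioned medium (0.371 of it, adjusted p = 3.23e-10), by edgeR.

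Unstimulated WT cells showed no such fall. They had 100.2 and 74.7 CPM with PGE2 and 89.5, 95.3, 93.1 and 94.9 with conditioned medium, changes of 0.30 ± 0.22 and 0.39 ± 0.18 that were not called. The ratio of the stimulated to the unstimulated group mean was 4.52 without treatment, 1.20 with PGE2 and 1.28 with conditioned medium. The interaction of treatment with stimulation was -1.90 ± 0.27 for PGE2 (adjusted p = 8.18e-06) and -1.82 ± 0.24 for conditioned medium (adjusted p = 1.43e-06). Jak2 was the only member called in each of these, where 1.31% and 2.19% of all genes were called, and its p ranked second among all genes in both.

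In EP2KO cells Jak2 also rose with anti-NK1.1 and was held down by both treatments. Untreated, Jak2 stood at 122, 90.8, 69.8 and 91.6 CPM unstimulated and 345, 354, 302 and 245 stimulated. Stimulated cells had 169, 121, 104 and 159 CPM with PGE2 and 175, 150.3, 92.1 and 157 with conditioned medium. All treated stimulated libraries were below all untreated stimulated ones. The rise with anti-NK1.1 was 1.73 ± 0.17, and the falls were -1.17 ± 0.16 with PGE2 (adjusted p = 1.35e-07) and -1.11 ± 0.16 with conditioned medium (adjusted p = 4.23e-07).

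In EP2KO the ratio of stimulated to unstimulated means was 3.33 untreated, 1.51 with PGE2 and 1.56 with conditioned medium. The interaction was -1.14 ± 0.24 for PGE2 (adjusted p = 0.00911) and -1.08 ± 0.24 for conditioned medium (adjusted p = 0.0104). Jak2 was again the only member called in each, where 0.326% and 0.634% of all genes were called. The conditioned medium interaction was not called without the untreated unstimulated replicate 3 (-0.95, adjusted p = 0.0542) or the stimulated conditioned medium replicate 3 (-0.93, adjusted p = 0.0524). The fall with PGE2 in stimulated cells was not called different from WT (0.44 ± 0.23, interval -0.01 to 0.89), nor was that with conditioned medium (0.32 ± 0.23, interval -0.12 to 0.76).

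In untreated EP2/EP4KO cells Jak2 rose with anti-NK1.1. Unstimulated, it stood at 83.0, 75.6 and 92.7 CPM untreated, 76.0, 71.4 and 79.7 with PGE2, and 79.5, 96.7 and 105.1 with conditioned medium. Stimulated, it stood at 276.5, 249 and 228 CPM untreated, 213, 238 and 258 with PGE2, and 171, 252 and 276 with conditioned medium. The stimulated groups overlapped one another, and the treatment changes were -0.09 ± 0.18 (interval -0.44 to 0.27) and -0.11 ± 0.18 (interval -0.46 to 0.25). The rise with anti-NK1.1 in untreated cells was 1.58 ± 0.19 (adjusted p = 7.24e-10). Within each treatment every stimulated library was above every unstimulated one, a difference that was not tested.

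The difference of the stimulated treatment effects, EP2/EP4KO minus EP2KO, was 1.08 ± 0.24 for PGE2 (adjusted p = 0.00772) and 1.00 ± 0.24 for conditioned medium (adjusted p = 0.0366). Fitted on only the groups compared, neither was called (1.06, adjusted p = 0.0520, and 0.97, adjusted p = 0.283). The conditioned medium difference was also lost without any of 8 of its 14 libraries: EP2KO stimulated untreated replicates 1, 2 and 3 (adjusted p = 0.0967, 0.0997 and 0.0557), EP2KO stimulated conditioned medium replicate 3 (0.135), EP2/EP4KO stimulated untreated replicates 2 and 3 (0.0940 and 0.128), and EP2/EP4KO stimulated conditioned medium replicates 2 and 3 (0.111 and 0.191), with differences between 0.84 and 1.02.

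**Figure D3:**
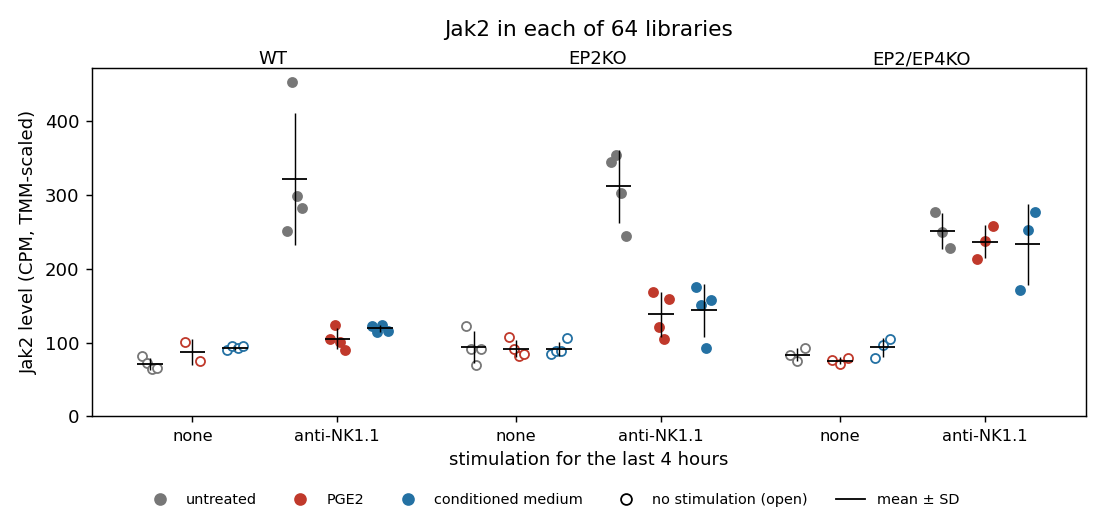
Jak2 level in CPM (vertical axis, from 0) in each library, by genotype, stimulation (open circles none, filled circles anti-NK1.1) and treatment (colour), with a bar at each group mean and a line of 1 SD either way. The untreated stimulated libraries of WT and EP2KO lie at 245 to 452 CPM and their treated stimulated libraries at 90.6 to 175 CPM, while the 9 stimulated libraries of EP2/EP4KO lie together at 171 to 276.5 CPM.

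Jak1, the kinase shared by IL-2, IL-15 and interferon receptors, lies at chr4:101152367-101265282 on the minus strand. Its promoter is shown because it was the member window with the full cyclic AMP response element, while treatment did not move its transcript past the threshold. The window is chr4:101265174-101265473, minus strand, with TGACGTCA, which starts at position -101 from the annotated start, and a separate TGACG at position 16 in capitals:

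Jak1: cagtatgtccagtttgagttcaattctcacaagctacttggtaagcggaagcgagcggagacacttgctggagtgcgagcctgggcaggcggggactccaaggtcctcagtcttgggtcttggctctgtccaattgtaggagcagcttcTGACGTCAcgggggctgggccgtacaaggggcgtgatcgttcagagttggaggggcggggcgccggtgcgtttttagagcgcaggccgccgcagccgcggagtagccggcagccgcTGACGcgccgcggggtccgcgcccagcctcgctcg

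Over the 12 treatment comparisons Jak1 was never called, with changes between -0.12 and 0.24 and a lowest adjusted p of 0.300 by edgeR. With anti-NK1.1 it fell in each genotype. WT libraries went from 835, 955, 969 and 883 CPM to 648, 742, 737 and 508.5 CPM, EP2KO from a range of 796 to 952 to one of 544 to 724, and EP2/EP4KO from 854 to 958 to 517 to 766. The groups did not overlap in any genotype, and the falls were -0.47 ± 0.12 (adjusted p = 0.00144), -0.55 ± 0.12 (adjusted p = 0.000219) and -0.58 ± 0.14 (adjusted p = 0.000867).

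Tyk2, the kinase that partners JAK2 at the IL-12 receptor and JAK1 at the type I interferon receptor, lies at chr9:21104068-21131243. It ranged from 16.3 to 47.2 CPM over all libraries, 14 to 60 counts each. It was not called with anti-NK1.1 (0.22 ± 0.20, -0.25 ± 0.20 and 0.07 ± 0.22 in WT, EP2KO and EP2/EP4KO). In stimulated WT cells it went from 35.0, 33.8, 39.3 and 29.6 CPM to 26.6, 18.3, 29.2 and 18.5 with PGE2, a change of -0.58 ± 0.21 at an adjusted p of 0.0499. The groups did not overlap, but this call held in 3 of 13 alternative analyses, and adjusted p ran up to 0.226.

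The Tyk2 call was lost without stimulated untreated WT replicate 1, 2 or 3 (adjusted p = 0.0896, 0.0704 and 0.137) and without stimulated PGE2 WT replicate 1, 2 or 4 (0.0509, 0.184 and 0.172). It was also lost by DESeq2 (0.0673), with RLE scaling (0.0518), with no filter (0.226) and on only the groups compared (0.187). In unstimulated EP2KO cells with PGE2 it changed by -0.65 ± 0.21 (adjusted p = 0.0717). That change was called with the replicate block (adjusted p = 0.0345) and without EP2KO unstimulated PGE2 replicate 2 (-0.79, adjusted p = 0.0426). An antisense gene, 1700084C06Rik, overlaps Tyk2 over 24326 bases and had at most 2 counts in a library. Jak3, the remaining JAK, was not called in any comparison, with its lowest adjusted p at 0.0575 for PGE2 in stimulated WT (-0.95 ± 0.36).

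Stat4, which carries the IL-12 signal that drives interferon-gamma, lies at chr1:51987148-52107189 on the plus strand. In untreated WT cells it went from 315, 388, 400.1 and 312 CPM to 185, 209, 139.9 and 138 CPM with anti-NK1.1. No stimulated library reached an unstimulated one, and the fall was -1.07 ± 0.16 (adjusted p = 1.57e-07). EP2KO and EP2/EP4KO cells fell by 1.00 and 0.83 on the log2 scale, also called. With treatment the stimulated WT libraries stood higher, at 298, 306, 307 and 297 CPM with PGE2 and 226, 251, 270.2 and 268 with conditioned medium.

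All these treated stimulated libraries were above the untreated stimulated ones, by 0.84 ± 0.16 (adjusted p = 7.10e-05) and 0.59 ± 0.16 (adjusted p = 0.00687). In stimulated EP2KO cells PGE2 gave 0.61 ± 0.16 (adjusted p = 0.00929), which was not called without stimulated untreated replicate 3 (0.49, adjusted p = 0.0820) or stimulated PGE2 replicate 1 (0.48, adjusted p = 0.0701). Conditioned medium gave 0.46 ± 0.16 there (adjusted p = 0.0504), called in 6 of 13 alternatives. These were the replicate block (adjusted p = 0.00507), DESeq2 (0.0414), no filter (0.0491) and only the groups compared (0.0204). The others left out stimulated untreated replicate 2 (0.57, adjusted p = 0.0304) or conditioned medium replicate 4 (0.53, adjusted p = 0.0376). In EP2/EP4KO the changes were 0.16 ± 0.19 and 0.02 ± 0.19. Neither interaction with stimulation was called for Stat4 in WT or EP2KO.

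Stat5a and Stat5b encode near-identical proteins that carry the IL-2 and IL-15 signal. They lie next to each other at chr11:100859351-100885169 (plus strand) and chr11:100780731-100850724 (minus strand), and with Stat3 form a cluster of 158.8 kb. How reads that match both copies were counted is not given in the sources used here, so their levels are uncertain. The 3′ ends of Stat5a and Stat3 overlap by 72 bases on opposite strands, and without stated strand counting reads from that stretch cannot be told apart. In unstimulated cells with conditioned medium, where Stat3 rose, Stat5a changed by 0.73 ± 0.20 in WT (called) and 0.04 ± 0.20 in EP2KO. With PGE2 it changed by 0.42 ± 0.24 and -0.05 ± 0.20. In stimulated cells, where Stat3 rose too, Stat5a changed by 0.04 with PGE2 and -0.10 with conditioned medium in WT. In stimulated EP2KO cells these changes were -0.07 and -0.003, none of them called. The part of the shared stretch in the Stat5a counts was not tested.

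Stat5a rose with anti-NK1.1. Untreated WT libraries went from 36.3, 20.7, 28.6 and 22.4 CPM to 60.9, 55.4, 79.6 and 81.8, with no overlap, a rise of 1.35 ± 0.18 (adjusted p = 1.28e-08). EP2KO cells rose by 1.27 ± 0.18 and EP2/EP4KO cells by 1.22 ± 0.20, both called. Among treatments 1 of 12 comparisons was called, unstimulated WT with conditioned medium (0.73 ± 0.20, adjusted p = 0.0128). Its libraries stood at 47.7, 32.8, 43.8 and 55.7 CPM and overlapped the untreated ones. In unstimulated EP2/EP4KO cells with PGE2 Stat5a changed by -0.62, which was not called, though its p ranked 24 among the 10723 genes. Those libraries ran from 14.6 to 23.6 CPM, below the untreated ones at 28.9 to 35.6 CPM (n = 3 each). The interaction of conditioned medium with stimulation was -0.83 ± 0.26 in WT (adjusted p = 0.0704). It was called in 4 of 21 alternatives, among them the replicate block (adjusted p = 0.0141) and DESeq2 (adjusted p = 0.0399). The unstimulated call was lost without untreated replicate 2 (0.61, adjusted p = 0.0608), untreated replicate 4 (0.65, adjusted p = 0.0638) or conditioned medium replicate 4 (0.61, adjusted p = 0.0795), and with no filter on low counts (adjusted p = 0.0510).

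Stat5b was not called with anti-NK1.1. It changed by 0.24 ± 0.18, 0.20 ± 0.18 and 0.33 ± 0.20 in WT, EP2KO and EP2/EP4KO. In unstimulated WT cells it went from 37.8, 23.9, 29.5 and 23.3 CPM to 50.6, 43.0, 60.2 and 55.7 with conditioned medium, with no overlap (0.86 ± 0.18, adjusted p = 0.000704). In stimulated WT cells it went from 32.0, 33.8, 33.8 and 35.8 CPM to 45.4, 48.2, 62.3 and 52.7 with PGE2 (0.62 ± 0.17, adjusted p = 0.00697). This call was lost when no filter on low counts was applied (adjusted p = 0.0527).

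In unstimulated EP2KO cells conditioned medium raised Stat5b by 0.69 ± 0.18 (adjusted p = 0.0108), lost without untreated replicate 1 (0.63, adjusted p = 0.0532) or conditioned medium replicate 3 (0.58, adjusted p = 0.0829), and with no filter (adjusted p = 0.111). PGE2 gave 0.56 ± 0.18 there (adjusted p = 0.0657), which was called with the replicate block (adjusted p = 0.0464) or without untreated replicate 2 (0.68, adjusted p = 0.0351). In unstimulated EP2/EP4KO cells with PGE2 Stat5b changed by 0.53 ± 0.20 (adjusted p = 1), a size close to that in WT (0.52 ± 0.22) and EP2KO, neither of them called. Differences between genotypes were not called for Stat5b.

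Stat6, the STAT of IL-4 signalling, lies at chr10:127642986-127660957 on the plus strand. Untreated WT libraries went from 77.0, 95.7, 84.8 and 88.1 CPM to 123, 172, 136 and 140.2 with anti-NK1.1, with no overlap (0.73 ± 0.13, adjusted p = 5.72e-06), and it rose by 0.69 ± 0.13 in EP2KO and 0.83 ± 0.15 in EP2/EP4KO. With treatment stimulated WT libraries stood at 103, 115.5, 90.6 and 112 CPM with PGE2 and 98.9, 112, 92.2 and 104 with conditioned medium, below every untreated stimulated library. The falls were -0.44 ± 0.13 (adjusted p = 0.0112) and -0.49 ± 0.13 (adjusted p = 0.00439). The interaction of conditioned medium with stimulation was -0.63 ± 0.19 (adjusted p = 0.0525). It was called in 7 of 21 alternatives, among them the replicate block (adjusted p = 0.0121) and DESeq2 (adjusted p = 0.0207). The fall with PGE2 was lost without untreated replicate 2 (-0.33, adjusted p = 0.0838) or PGE2 replicate 3 (-0.37, adjusted p = 0.0650). Both WT falls were lost with no filter on low counts (adjusted p = 0.141 and 0.0654) and when only the groups compared were fitted (0.180 and 0.106).

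In stimulated EP2KO cells conditioned medium changed Stat6 by -0.37 ± 0.13 (adjusted p = 0.0451), a call lost without untreated replicate 1, 2 or 3 (adjusted p = 0.135, 0.119 and 0.117) or conditioned medium replicate 1, 2 or 3 (0.0857, 0.117 and 0.123). It was also lost with RLE scaling (0.0516), with no filter (0.381) and on only the groups compared (0.122). In EP2/EP4KO the changes were 0.07 ± 0.14 and -0.07 ± 0.14. The 3′ end of Stat6 overlaps that of Nab2, on the opposite strand, by 40 bases. Nab2, a repressor of EGR factors, moved the same way in WT, by 1.17 ± 0.23 with anti-NK1.1 and -1.40 ± 0.24 with PGE2 in stimulated cells. Its WT means were 43.9 ± 3.75 CPM (SD) untreated unstimulated, 99.5 ± 51.4 untreated stimulated and 37.5 ± 4.90 with PGE2 stimulated. The Stat6 means of these groups were 86.4 ± 7.74, 143 ± 20.8 and 105 ± 11.1 CPM. The part of Nab2 in the Stat6 counts was not tested.

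Stat2, which joins IRF9 in the factor that type I interferon activates, lies at chr10:128270559-128292849 and was the lowest in counts, with 8 to 40 per library. It ranged from 6.94 to 32.5 CPM and was not called in the main analysis in any of the 15 comparisons within a genotype. With anti-NK1.1 it changed by -0.33 ± 0.28 in WT, -0.49 ± 0.27 in EP2KO and -0.65 ± 0.30 in EP2/EP4KO (adjusted p = 0.0910). The last was called with the replicate block (-0.67, adjusted p = 0.0297) or without stimulated untreated EP2/EP4KO replicate 3 (-0.99, adjusted p = 0.0252). With conditioned medium in stimulated WT cells it changed by 0.63 ± 0.27 (adjusted p = 0.113), which was called with the replicate block (adjusted p = 0.0443) or without conditioned medium replicate 3 (0.82, adjusted p = 0.0397).

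**Figure D4:**
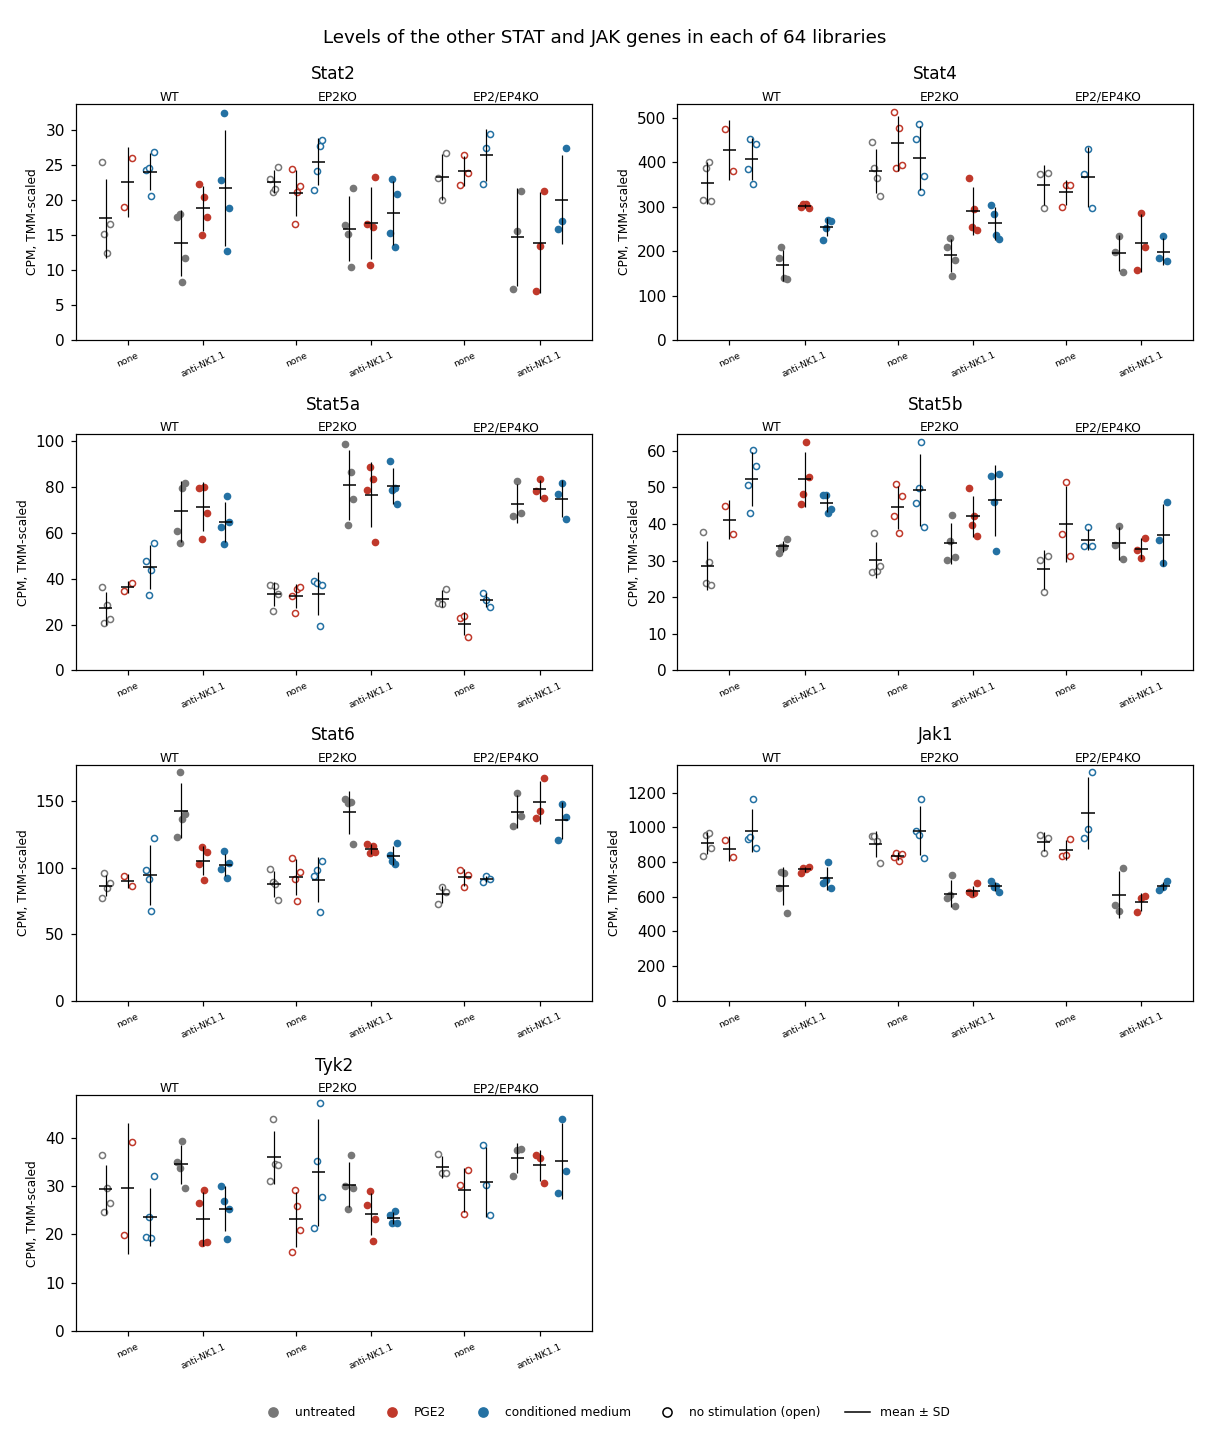
Levels in CPM (vertical axes, each from 0) of the other 7 members in each library, by genotype, stimulation (open circles none, filled circles anti-NK1.1) and treatment (colour), with a bar at each group mean and a line of 1 SD either way. In untreated cells of all genotypes Stat5a and Stat6 stand higher and Stat4 and Jak1 lower with anti-NK1.1. Treated stimulated WT libraries of Stat4 (226 to 307 CPM) lie above the untreated stimulated ones (138 to 209 CPM).

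Ordered by group mean, Stat3 was highest in stimulated WT cells with PGE2 (852 ± 60.8 CPM, SD, n = 4) and lowest in untreated unstimulated EP2KO cells (176 ± 23.2, n = 4). Of the 17 pairs of neighbouring groups in this order, 15 overlapped in their libraries. The 2 that did not were the top group against the next, and the lowest treated EP2KO group (548 ± 89.5) against the highest EP2/EP4KO group (289 ± 52.7, n = 3). Jak2 ran from 321 ± 89.6 CPM in untreated stimulated WT cells to 71.1 ± 7.70 in untreated unstimulated WT cells, and all 17 neighbouring pairs overlapped. Neighbours also overlapped in all 17 pairs for Stat2, Stat4, Stat5a, Stat5b and Tyk2, and in 16 for Stat6 and Jak1.

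No member was called between untreated genotypes. Between EP2KO and WT, 0 members were called by edgeR or DESeq2, where 0.0653% (unstimulated) and 0.0746% (stimulated) of all genes were. Between EP2/EP4KO and EP2KO, 0 members were called by either tool, where 0.0560% and 0.0839% of all genes were. At an unadjusted p under 0.05, edgeR had 1 member between unstimulated EP2KO and WT cells, Jak2 (0.39 ± 0.18), where 774 of all 10723 genes passed. In the other 3 comparisons it had 0. There 658 (EP2KO against WT, stimulated), 568 and 528 (EP2/EP4KO against EP2KO, unstimulated and stimulated) of all genes passed.

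Patterns over the 18 group means of log2 CPM were compared by Pearson's r, as a description, over 7281 other genes whose mean log2 CPM was 4 or more. Most like Stat3 were Bend4 (r = 0.975), Crem (0.964), a cyclic AMP responsive repressor, and Ccdc66 (0.964). Most like Jak2 were Arhgap17 (0.987), Klf9 (0.987) and Cflar (0.987), an inhibitor of death receptor signalling. Among members, Stat5b was most like Stat3 (0.903) and Stat6 like Jak2 (0.964), Stat4 ran opposite to Jak2 (-0.93), and Stat5a and Stat5b had little in common (0.19). Groups share libraries' depth and the stimulation and treatment steps, so these values are not independent evidence.

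The counts of list members below are to be read against the shares of all genes called. In WT these were 23.0% higher and 19.1% lower with anti-NK1.1, 6.00% and 9.63% with PGE2 in stimulated cells, and 6.20% and 9.22% with conditioned medium in stimulated cells. In unstimulated WT cells they were 1.91% and 1.05% with PGE2 and 4.55% and 3.68% with conditioned medium. No list was tested as a whole.

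Of 28 receptors that signal through JAKs, 20 were tested. In WT cells anti-NK1.1 gave 5 higher, near the share of all genes, and 8 lower, with a median of 0.11 against 0.01 for all genes (23.0% higher, 19.1% lower). Il2ra, the high-affinity IL-2 receptor chain, rose by 2.94 ± 0.20 and Ifngr1, the ligand-binding interferon-gamma receptor chain, fell by 2.34 ± 0.15. PGE2 in stimulated cells gave 4 higher and 3 lower (median 0.05 against -0.05), and the same genes went the other way: Ifngr1 rose by 2.16 ± 0.15 and Il2ra fell by 1.55 ± 0.19. Il12rb2, the IL-12 receptor chain that docks STAT4, rose by 1.40 ± 0.17 and Il2rb, the signalling chain of IL-2 and IL-15, by 0.86 ± 0.12. With conditioned medium the 4 changes were 1.93 ± 0.15, -1.50 ± 0.19, 0.84 ± 0.17 and 0.77 ± 0.12, in the same order, all called, among 4 higher and 3 lower receptors.

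Without stimulation PGE2 gave 2 higher receptors and 1 lower in WT: Il12rb2 (0.97 ± 0.19) and Ifngr1 (0.66 ± 0.17) rose, and Il27ra, the IL-27 receptor chain, fell by 2.42 ± 0.48. Conditioned medium gave 3 higher and 1 lower.

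Of 22 ligands of these receptors, 8 were tested, and 5 rose with anti-NK1.1 in WT (median 2.15 against 0.01). Ifng, encoding interferon-gamma, rose by 3.12 ± 0.20, Il2 by 3.58 ± 0.42 and Csf2, encoding GM-CSF, by 3.42 ± 0.32. PGE2 in stimulated WT cells lowered 4 (median -1.45 against -0.05): Ifng changed by -1.85 ± 0.18, Il2 by -2.95 ± 0.39, Csf2 by -2.32 ± 0.28 and Lif by -1.39 ± 0.36. Conditioned medium lowered 3. The abundance filter keeps a gene that reaches the minimum count in a few libraries, so a ligand high only in stimulated groups can be tested. The rise of this list, its medians and its fall with treatment may thus be partly set by the filter, which was not tested.

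All 21 inhibitors were tested. In unstimulated WT cells the 1 called with PGE2 was Ptpn6, encoding the phosphatase SHP-1, which fell by 1.88 ± 0.19, and it fell by 1.59 ± 0.15 with conditioned medium, where Socs1 fell as well (-0.92 ± 0.30, adjusted p = 0.0486). In stimulated WT cells both treatments lowered 3 inhibitors. These were Ptpn6, Ptpn2, encoding a phosphatase of JAK1 and STATs, and Cish, a feedback inhibitor downstream of STAT5. Cish rose by 1.93 ± 0.21 with anti-NK1.1 and fell by 1.18 ± 0.20 with PGE2 and by 0.92 ± 0.19 with conditioned medium in stimulated cells. Of 20 partners, all tested, 7 rose and 6 fell with anti-NK1.1, against 23.0% and 19.1% of all genes. Pim1, a kinase induced by STATs, rose by 2.28 ± 0.12 and fell by 1.01 ± 0.12 with PGE2.

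Of 25 STAT3 targets 21 were tested, and with PGE2 in unstimulated WT cells, where Stat3 rose 3.97-fold, 3 rose and 1 fell (median -0.07 against 0.01). Vegfa (2.56 ± 0.28), Fosl2 (1.89 ± 0.23) and Hif1a (1.06 ± 0.16) rose and Myc fell by 1.58 ± 0.30. Stimulated, 4 rose and 6 fell with PGE2 (median -0.12 against -0.05), where 6.00% and 9.63% of all genes did. Among those that rose was Hif1a (1.13 ± 0.14). Among those that fell were Bcl2l1, an anti-apoptotic gene (-1.99 ± 0.19), Pim1 and Icam1 (-1.40 ± 0.20).

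All 25 STAT5 targets were tested, and 14 rose and 5 fell with anti-NK1.1 in WT (median 0.71 against 0.01). PGE2 in stimulated WT cells raised 1 and lowered 12 (median -0.46 against -0.05), among them Bcl2l1, the cyclin gene Ccnd2 (-1.25 ± 0.13), Pim1 and Il2ra. Conditioned medium likewise raised 1 and lowered 12 (median -0.83 against -0.04). Neither Stat5a nor Stat5b was called lower in either comparison, and Stat5b was called higher with PGE2 (0.62). In stimulated EP2KO cells the counts were 2 higher and 9 lower with PGE2, where 3.39% of all genes were higher and 3.90% lower. With conditioned medium they were 1 higher and 10 lower, against 4.50% and 5.91% of all genes. Several genes are in more than 1 list, among them Pim1, Bcl2l1, Cish, Il2ra and Ifng.

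Of 15 STAT4 targets 14 were tested. PGE2 in stimulated WT cells, where Stat4 stood higher, raised 4 and lowered 4 (median -0.25 against -0.05), with Il12rb2 higher and Ifng, Gadd45g (-1.93 ± 0.21) and the perforin gene Prf1 (-0.96 ± 0.18) lower. Of 14 STAT6 targets 8 were tested, of which 3 rose and 1 fell with anti-NK1.1, and PGE2 in stimulated WT cells lowered 2, Cish and Xbp1 (-0.53 ± 0.17). Of 23 interferon-stimulated genes, the targets of STAT2 complexes, 13 were tested, and 1 fell with each treatment in stimulated WT cells, Ifih1, an RNA sensor (-1.43 ± 0.31 with PGE2 and -1.34 ± 0.30 with conditioned medium).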

How the data were processed

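The authors deposited 1 table of raw counts per gene, whole numbers for 36273 genes in 64 libraries. Per the labels' protocols, unique molecular identifiers were part of the 3′ library design. Not given in the sources used here: the aligner, the annotation, the strand setting, and whether identifiers were collapsed before counting. DESeq2 and the builds GRCm38 and mm10 are named in the submitters' processing notes. Total counts per library ran from 753973 to 1693750, and that depth sets the precision of each level. No row lacked a gene name and no libraries were identical.

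Counts were fitted with edgeR 4.0.16 (R 4.3.3, limma 3.58.1): filterByExpr with a minimum count of 10, TMM scaling, a robust quasi-likelihood fit of 18 group means, and Benjamini-Hochberg adjustment over 10723 genes, which hold 99.2% of all counts. Intervals are 95% intervals of the fit. The procedure was also run on data simulated with independent libraries, and the outcome is not given here. That run cannot check the effect of libraries that deviate together. Alternatives were DESeq2 1.42.0, RLE scaling, no filter, only the groups compared, the replicate number as a block, and each library left out. Same-numbered libraries of 1 genotype deviated together (mean r = 0.33, over 0.1 in 86.45% of 155 pairs), but not in every pair of every comparison. The main design has no block.

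The members and lists were chosen with earlier results of these data known. Named genes were all members, up to 4 called genes of smallest p per list in each of 5 WT comparisons, and the 5 genes most like each member. Gene positions are from GENCODE M21 (GRCm38). Of the family, 1 further row is not reported here.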

Additional observations from a re-analysis of the deposited data

Results flagged for a closer look

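In 4 of 99 groups of 4 libraries, 1 library stood far from the others by Dixon's test, where chance gives about 1 in 20 (4.95). Stat5a was 19.4 CPM in unstimulated EP2KO conditioned medium replicate 3, against 37.2 to 38.9 in the others. Stat5b was 37.6 CPM in unstimulated untreated EP2KO replicate 2, against 27.0 to 28.6. Stat6 was 117 CPM in stimulated untreated EP2KO replicate 4, against 148 to 151. Jak1 was 677 CPM in stimulated PGE2 EP2KO replicate 4, against 615 to 625.

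Some effects differed between groups by a test of the difference itself, with edgeR's adjusted p. The Jak2 effect of PGE2 differed between stimulated and unstimulated cells by -1.90 in WT (adjusted p = 8.18e-06) and -1.14 in EP2KO (0.00911), and that of conditioned medium by -1.82 (1.43e-06) and -1.08 (0.0104). EP2/EP4KO and EP2KO differ in sex and GzmbCre as well as in EP4. Between these genotypes the stimulated Jak2 effect differed by 1.08 for PGE2 (0.00772) and 1.00 for conditioned medium (0.0366). Neither was called when only the groups compared were fitted (0.0520 and 0.283). The conditioned medium difference was also lost without any 1 of 8 of its 14 libraries. The Stat3 effect differed between the same genotypes by -1.31 (PGE2, 0.000149) and -1.18 (conditioned medium, 0.00111) in unstimulated cells. In stimulated cells it differed by -1.43 (4.11e-06) and -1.21 (0.00032).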

How the results depend on the processing

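Over 4473 alternative values of single members, 4399 stayed on their side of the threshold, 47 were no longer called and 27 became called. The sign changed in 290 values, none of them called in the main analysis or in the alternative. All 497 alternatives of Jak1 and 496 of 497 of Stat3 stayed on their side of the threshold. With the replicate block the number of members called went from 1 to 3 for PGE2 in unstimulated EP2KO, from 0 to 1 for conditioned medium in stimulated EP2/EP4KO, and from 1 to 3 for the conditioned medium by stimulation interaction in WT, which was also 3 with DESeq2. In all, the block gained 8 calls (48 to 56) and lost 0. With no filter on low counts, calls went from 6 to 3 for PGE2 in stimulated WT and from 2 to 1 for conditioned medium in unstimulated EP2KO. Fitted on only the groups compared, calls went from 2 to 1 for the EP2/EP4KO minus EP2KO difference in stimulated cells, with PGE2 and with conditioned medium alike. In these settings calls in other comparisons also changed, by a smaller factor. The cause of these changes was not tested. Leaving out 1 library gave 1 to 2 calls for PGE2 in unstimulated EP2KO, 4 to 6 in stimulated WT and 2 to 3 in stimulated EP2KO. For conditioned medium it gave 2 to 3 in unstimulated WT and 1 to 2 in unstimulated EP2KO. Stimulated, conditioned medium had 4 to 5 in WT and 2 to 4 in EP2KO. The conditioned medium interaction had 1 to 2 in WT and 0 to 1 in EP2KO. The conditioned medium difference of EP2/EP4KO minus EP2KO in stimulated cells had 1 to 2, and anti-NK1.1 in EP2/EP4KO had 5 to 6. The order of levels by plain library totals kept 4 neighbouring pairs apart, as in the main order. Depth limits Stat2 (8 to 40 counts per library) and Tyk2 (14 to 60) most.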
